A study of Mus musculus with 30 samples.

Results

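The calsyntenins Clstn1, Clstn2 and Clstn3 were examined in Per3-/- mice and their WT littermates, in the hypothalamus and the eye. They are 3 of 28146 gene names on the array. Clstn1 was selected on its measured difference between the genotypes in these same arrays, so its genotype differences are given as description and carry no test. Its tissue differences, and all values of Clstn2 and Clstn3, were not used to choose it. Labelled RNA was hybridised to 1-colour oligonucleotide arrays from male adult mice on a C57Bl/6J background, all of which had been kept for 17 cycles of 3.5 h light and 3.5 h dark. The hypothalamus was measured in 8 WT and 8 Per3-/- mice and the whole eye in 7 WT and 7 Per3-/- mice, with 1 array per mouse and tissue. In the Per3-/- line a PGK-NEO cassette replaced part of Per3 in the whole animal, not in a chosen cell type. The hypothalamic sample was a square tissue block that included the suprachiasmatic nucleus, and the eye was taken whole, so both hold many cell types, and fewer cells of a type cannot be told apart from less RNA per cell.

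Calsyntenins are membrane proteins of neurons with cadherin repeats outside the cell and a short tail inside it. The tail of Clstn1 binds the light chain of kinesin-1 and so links vesicles to the motor that carries them along axons, and calsyntenins also bind the X11 adaptors together with the amyloid precursor protein. Like that protein they are cut outside the membrane by a sheddase and then within it by gamma-secretase. Clstn3 is known as an organiser of synapses that acts with neurexins.

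By gene name the arrays held 1 probe of Clstn1, 3 of Clstn2 and 1 of Clstn3, each of 60 bases. A further probe, A_52_P448205, was named only by a transcript but described as calsyntenin 1. Another, A_52_P763332, was designed on an unclassified cDNA (AK036293) and lay on the strand of Clstn1, 56424 bp upstream of A_52_P448205, so that its link to Clstn1 rests on position. That gave 7 probes on 3 genes. Probe positions are those of the mm9 build in the hypothalamus file headers. The genes themselves are given by RefSeq on GRCm38.p6, where Clstn1 spans 63789 bp of chromosome 4, Clstn3 34029 bp of chromosome 6 and Clstn2 588979 bp of chromosome 9. Whether a probe falls in coding sequence or a UTR was not analysed here.

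The sequences of the Clstn1 probes are shown because their signals differed from each other in direction. A_51_P287986 (chr4:149021715-149021774, plus strand) and A_52_P448205 (chr4:149022877-149022936, plus strand) lie 1162 bp apart. A_52_P174286 (chr4:149021686-149021745, minus strand) reads the opposite strand, and the capitals in it and in A_51_P287986 mark the stretch where both cover the same positions. A_52_P763332 lies at chr4:148966453-148966512 on the plus strand.
A_52_P763332: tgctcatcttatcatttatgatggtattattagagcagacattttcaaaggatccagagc
A_51_P287986: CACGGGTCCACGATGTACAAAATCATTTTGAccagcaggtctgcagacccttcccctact
A_52_P174286: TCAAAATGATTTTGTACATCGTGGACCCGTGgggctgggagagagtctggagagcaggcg
A_52_P448205: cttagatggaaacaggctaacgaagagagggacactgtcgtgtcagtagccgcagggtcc

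The last Clstn2 probe and the Clstn3 probe are shown as the brightest of their genes. A_52_P424784 (chr9:97344834-97344893, minus strand) holds the hexamer AATAAA, a polyadenylation signal, in capitals, and A_51_P114094 lies at chr6:124380862-124380921 on the minus strand.
A_52_P424784: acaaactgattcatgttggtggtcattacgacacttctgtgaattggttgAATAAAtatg
A_51_P114094: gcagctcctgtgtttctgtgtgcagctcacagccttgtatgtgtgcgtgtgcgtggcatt

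Signals are given as log2 of the background-corrected signal minus the 75th percentile of the array (P75), so that 0 is the P75 of that array and a step of 1 doubles the signal. That percentile lay between 1131 and 2207 intensity units over the 30 arrays, and from 67.9% to 80.7% of probes were well above background. How many arrays there were sets the precision. The targeted gene, Per3 (A_51_P258493), averaged -3.46 ± 0.15 (SD, n = 8) in the WT hypothalamus against -3.97 ± 0.21 (SD, n = 8) in the Per3-/- hypothalamus, and -3.13 ± 0.39 (SD, n = 7) and -3.58 ± 0.52 (SD, n = 7) in the eye. All 10 eye markers were higher in the eye and 8 of 10 hypothalamus markers were lower there. The summed signal of 6 pituitary markers was 1194 times P75 in 1 Per3-/- hypothalamus, replicate 1, and at most 48.7 times in the WT hypothalamus. Without that mouse the difference of A_52_P448205 was -0.47 log2. The part of pituitary tissue in the results was not tested.

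Clstn1 differed between the genotypes at its last probe. In the hypothalamus A_52_P448205 ranged from 6.74 to 7.06 log2 in WT mice, with a median of 6.86, and from 6.30 to 6.47, with a median of 6.44, in Per3-/- mice. All 8 Per3-/- mice lay below every WT mouse. The means differed by -0.47 (SE 0.05), which is 1.39-fold lower in Per3-/- mice. In the eye the probe ranged from 6.13 to 6.39 with a median of 6.32 in WT mice, and from 5.55 to 5.75 with a median of 5.69 in Per3-/- mice. Again all 7 Per3-/- mice lay below every WT mouse, and the difference was -0.61 (SE 0.06), or 1.53-fold lower. The difference was negative on each of the 4 slides of either tissue, lying between -0.58 and -0.43 for the hypothalamic slides and between -0.84 and -0.50 for the eye slides. With the replicate number as a block, on the 6 eye pairs, it was -0.57.

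The probe 1162 bp upstream did not show this separation. A_51_P287986 ranged from 0.09 to 0.36 with a median of 0.26 in the WT hypothalamus and from -0.05 to 0.21 with a median of 0.13 in the Per3-/- hypothalamus. Only 3 of 8 Per3-/- mice lay below every WT mouse, and the means differed by -0.14 (SE 0.05). In the eye it ranged from 1.39 to 1.80 with a median of 1.58 in WT mice and from 1.51 to 1.71 with a median of 1.57 in Per3-/- mice. The groups overlapped there and the difference was -0.0006 (SE 0.07).

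The AK036293 probe went the other way. A_52_P763332 ranged from -6.14 to -4.60 with a median of -5.86 in the WT hypothalamus and from -5.75 to -4.86 with a median of -5.04 in the Per3-/- hypothalamus. The groups overlapped, with a difference of 0.51 (SE 0.21). In the eye it ranged from -6.43 to -4.83 with a median of -5.39 in WT mice and from -5.49 to -3.56 with a median of -4.61 in Per3-/- mice. The difference was 1.06 (SE 0.31) and 5 of 7 Per3-/- mice lay above every WT mouse. This probe was dim: it was well above background on 6 of 8 WT and 8 of 8 Per3-/- arrays of the hypothalamus and on 5 of 7 and 7 of 7 of the eye. With normexp background correction its hypothalamic difference was 0.06.

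**Figure D1:**
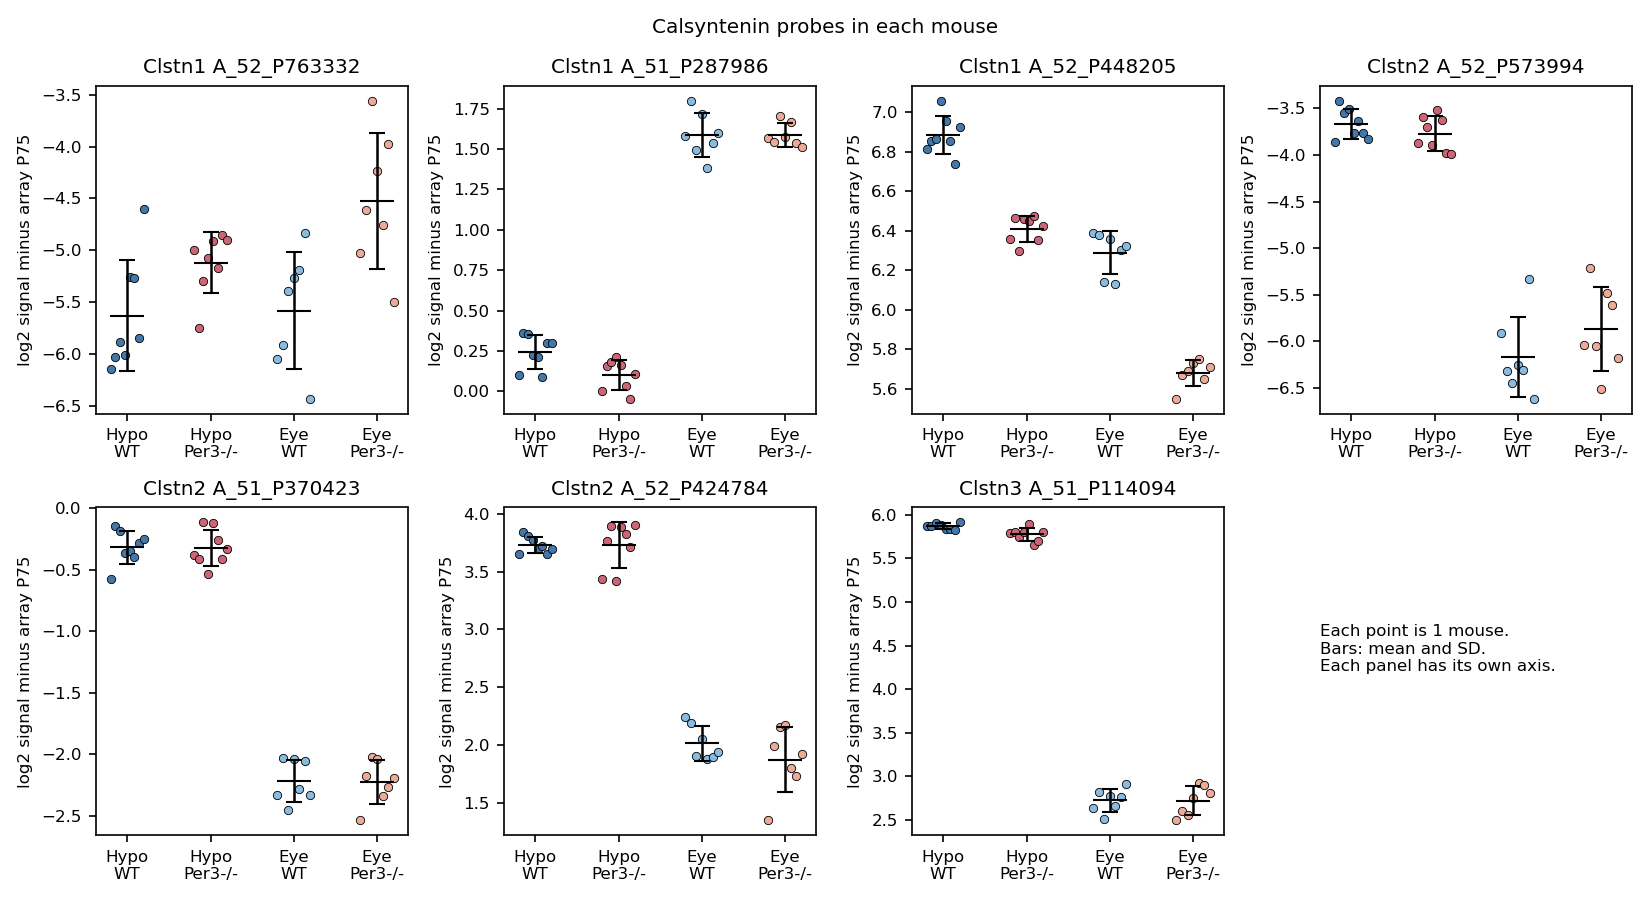
Signal of the 7 probes (log2 minus the array's P75) in each mouse, by tissue and genotype, with mean and SD, each panel on its own axis. A_52_P448205 is the panel in which the WT and Per3-/- mice do not overlap in either tissue. The Clstn2 and Clstn3 panels and that of Clstn1 A_51_P287986 separate by tissue, and A_52_P448205 does so within each genotype.

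On the opposite strand of Clstn1, A_52_P174286 differed between genotypes by 0.04 (SE 0.06) in the hypothalamus and 0.01 (SE 0.09) in the eye, and A_52_P128612 by -0.10 (SE 0.07) and 0.01 (SE 0.13). Both were well above background on all 30 arrays. On the plus strand the genotype difference thus ran from positive at the dim AK036293 probe, linked to Clstn1 by position only, to negative at the last. Values on the minus strand were near 0.

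**Figure D2:**
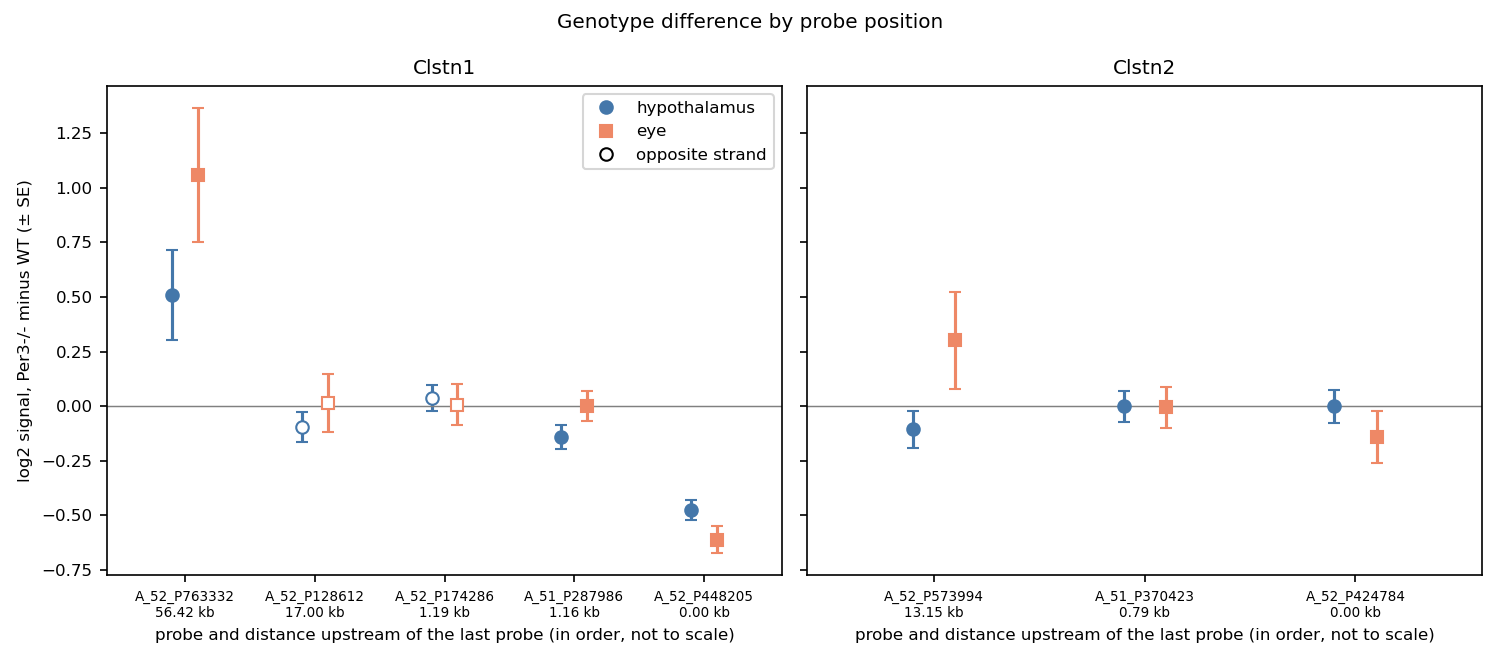
Per3-/- minus WT difference (log2, ± SE) for probes in order along Clstn1 and Clstn2, with the distance upstream of the last probe below each name (order to position, spacing not to scale). For Clstn1 the eye values run from 1.06 at A_52_P763332, a dim probe linked by position only, to -0.61 at the last. The Clstn2 values lie between -0.14 and 0.30.

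Within 1 array, the log2 signal of A_52_P448205 minus that of A_51_P287986 takes out whatever scales both probes alike. In the hypothalamus this difference averaged 6.64 ± 0.14 (SD, n = 8) for WT mice, against 6.31 ± 0.10 (SD, n = 8) for Per3-/- mice, and the ranges, from 6.439 to 6.831 and from 6.117 to 6.438, did not overlap but came within 0.01 of each other. In the eye it was 4.70 ± 0.08 (SD, n = 7) and 4.09 ± 0.08 (SD, n = 7), with ranges of 4.58 to 4.81 and 3.98 to 4.20 that did not overlap either. A_52_P448205 was read from the lower scanner gain on all 30 arrays and A_51_P287986 on none, and no spot of the 7 probes was saturated. The part of the scanner gain in these differences was not tested.

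**Figure D3:**
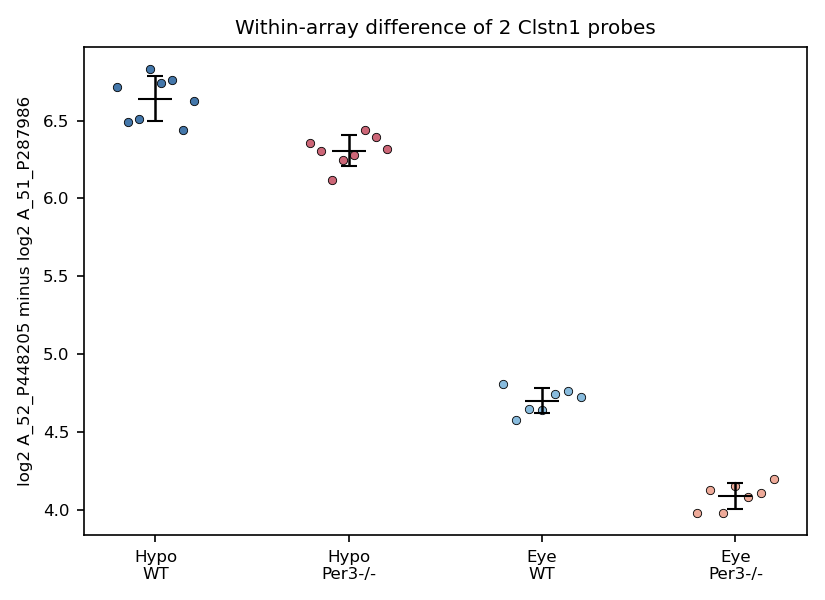
Within-array log2 difference of 2 Clstn1 probes in each mouse, with mean and SD by tissue and genotype. The Per3-/- eyes, from 3.98 to 4.20, lie below all WT eyes, from 4.58 to 4.81.

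None of the 4 Clstn2 and Clstn3 probes was called for genotype by limma or by the methods' t-test. At an unadjusted p under 0.05 limma passed 1 of 4 in the hypothalamus and 0 of 4 in the eye. Of all 41174 probes 1161 passed that unadjusted cut in the hypothalamus and 743 in the eye. Over all 41174 probes limma called 0.0413% in the hypothalamus and 0.0194% in the eye at an adjusted p under 0.05, so that 0 of 4 is near the background. The Clstn2 probe A_51_P370423 ranged from -0.58 to -0.14 with a median of -0.32 in the WT hypothalamus and from -0.53 to -0.12 with a median of -0.36 in the Per3-/- hypothalamus. The groups overlapped almost wholly, and its difference was -0.0017 (95% confidence interval -0.15 to 0.15, limma adjusted p = 0.999). In the eye it was -0.0063 (interval -0.21 to 0.20, limma adjusted p = 1.0). The last Clstn2 probe, A_52_P424784, differed by -0.001 (interval -0.16 to 0.16, limma adjusted p = 0.999) in the hypothalamus and by -0.14 (interval -0.40 to 0.12, limma adjusted p = 1.0) in the eye, where the value was -0.05 without Per3-/- replicate 2 and -0.0158 with the replicate number as a block. The first, A_52_P573994, differed by -0.11 (interval -0.29 to 0.08, limma adjusted p = 0.991) and by 0.30 (interval -0.18 to 0.78, limma adjusted p = 1.0).

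The Clstn3 probe A_51_P114094 ranged from 5.82 to 5.91 with a median of 5.87 in the WT hypothalamus and from 5.65 to 5.90 with a median of 5.80 in the Per3-/- hypothalamus. Of the 8 Per3-/- mice 7 lay below every WT mouse, but the difference of -0.09 (interval -0.17 to -0.02) did not pass the adjustment over all probes (limma adjusted p = 0.991). In the eye it ranged from 2.51 to 2.91 with a median of 2.76 in WT mice and from 2.50 to 2.93 with a median of 2.75 in Per3-/- mice. That difference was -0.0042 (interval -0.19 to 0.18, limma adjusted p = 1.0).

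The tissue difference separated the calsyntenins. In WT mice Clstn3 was 8.84-fold lower in the eye than in the hypothalamus (-3.14 log2, SE 0.06, limma adjusted p = 1.17e-16), with no overlap. Its probe was read from the lower scanner gain on 8 of 8 WT and 8 of 8 Per3-/- arrays of the hypothalamus and on none of the eye, and A_52_P424784 on 5 and 6 of 8 hypothalamus arrays and on none of the eye. The part of the scanner gain in their tissue differences was not tested. The Clstn2 probes were lower by 2.50 (A_52_P573994, SE 0.16, limma adjusted p = 4.15e-10), 1.90 (A_51_P370423, SE 0.08, limma adjusted p = 3.94e-12) and 1.71 (A_52_P424784, SE 0.06, limma adjusted p = 6.75e-13) log2, in the order in which they lie along the gene. A_52_P573994 was well above background on 4 of 7 WT eye arrays, and with normexp correction its difference was -1.11.

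The values by mouse showed the same separation of the tissues for Clstn2. A_52_P424784 of Clstn2 ranged from 3.65 to 3.84 with a median of 3.71 in the WT hypothalamus and from 3.42 to 3.90 with a median of 3.79 in the Per3-/- hypothalamus. In the eye it ranged from 1.88 to 2.24 with a median of 1.94 in WT mice and from 1.35 to 2.17 with a median of 1.92 in Per3-/- mice. Every eye lay below every hypothalamus, and the genotypes overlapped in both tissues. A_51_P370423 had medians of -2.28 in the WT and -2.19 in the Per3-/- eye, within -2.53 and -2.03. A_52_P573994 ranged from -3.99 to -3.42 over the hypothalamus arrays of both genotypes and from -6.61 to -5.22 over the eye arrays. In Per3-/- mice the eye minus hypothalamus difference was -3.05 (SE 0.07) for Clstn3 A_51_P114094, -2.10 (SE 0.17) for A_52_P573994, -1.90 (SE 0.09) for A_51_P370423 and -1.85 (SE 0.12) for A_52_P424784, near the WT values. On the Clstn2 strand further upstream, the cDNA probes A_51_P362042 and A_52_P1076091 were not well above background on any array, and A_52_P851214 was so on 2 of 8 WT and 2 of 8 Per3-/- arrays of the hypothalamus and on none of the eye. A_52_P273706, on the opposite strand, was 4.41-fold higher in the WT eye than in the WT hypothalamus (2.14 log2, SE 0.16, limma adjusted p = 3.53e-09).

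The Clstn1 probes differed in opposite directions between the tissues. A_52_P448205 was 1.51-fold lower in the eye (-0.59, SE 0.06, limma adjusted p = 1.38e-07), while A_51_P287986 was 2.54-fold higher there (1.34, SE 0.07, limma adjusted p = 2.55e-11). A_52_P763332 differed by 0.05 (SE 0.27, limma adjusted p = 0.877), and by -0.74 after quantile normalization, where it was called (limma adjusted p = 0.0184) and the number of called calsyntenin probes was 7. Of all probes 74.9% were called between the tissues, 33.3% lower and 41.6% higher in the eye, so that 6 of 7 calsyntenin probes called is close to the background. After quantile normalization 16281 probes were lower and 14383 higher in the eye, against 13721 and 17125 here, and the median over all probes was -0.07 in place of 0.15. Neither scaling turned the direction of the 6 called probes. Each slide held 1 tissue, so tissue and slide cannot be told apart.

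**Figure D4:**
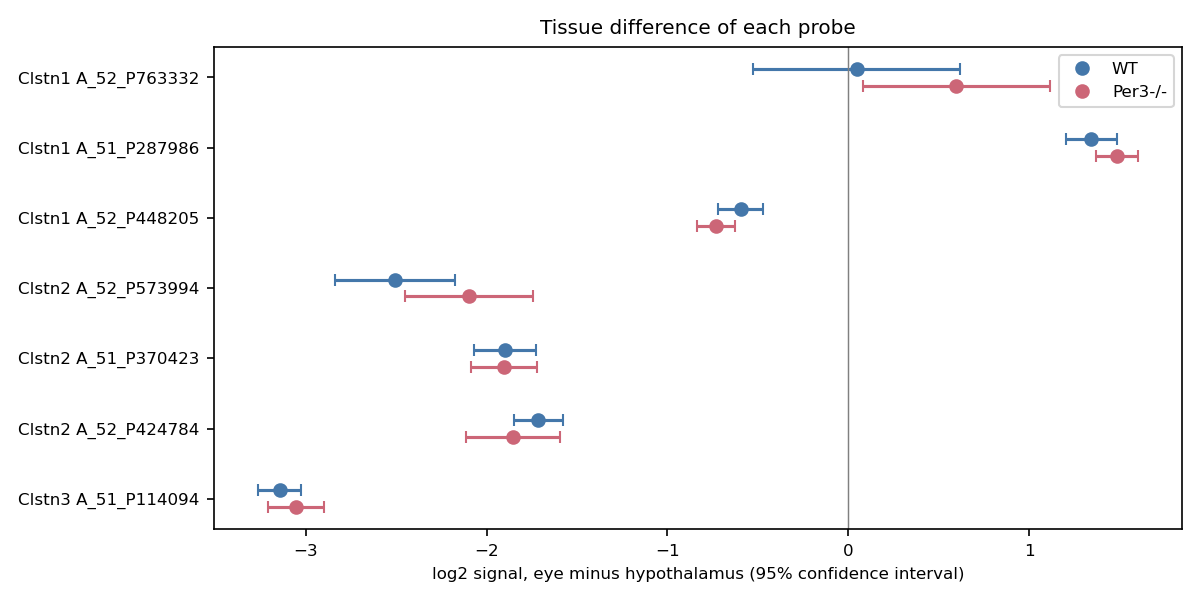
Eye minus hypothalamus difference (log2, with 95% confidence interval) of the 7 probes in WT and Per3-/- mice. Clstn2 and Clstn3 lie left of 0 and the Clstn1 probes A_51_P287986 and A_52_P448205 on opposite sides of it.

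The genotype difference itself was compared between the tissues. For A_52_P448205 it was 0.14 log2 lower in the eye than in the hypothalamus (a difference of -0.14, SE 0.07), and for A_51_P287986 the difference was 0.14 (SE 0.08). For Clstn3 it was 0.09 (interval -0.09 to 0.27, limma adjusted p = 1.0), and for the Clstn2 probes it ranged from -0.14 to 0.41 with limma adjusted p = 1.0 for each. No calsyntenin probe was called, against 0.00486% of all probes.

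Whether probes of a gene moved together over mice was asked within each tissue and genotype, in 16 relations between probes that all arrays of that group measured well above background. The correlation was positive in 13, with a median r of 0.47. For the Clstn2 probes A_51_P370423 and A_52_P424784 in the Per3-/- eye, r was 0.976 (exact permutation p = 0.00119, adjusted p = 0.00952) and rho 0.929 (exact permutation p = 0.00675, adjusted p = 0.054), and r was 0.921 without the 2 mice farthest from the median. For A_52_P573994 and A_52_P424784 in the WT hypothalamus r was 0.931 (exact permutation p = 0.00107, adjusted p = 0.00952) and rho 0.905 (exact permutation p = 0.00456, adjusted p = 0.054), and r was 0.87 without those mice. With slide means taken out these were 0.971 and 0.888. After quantile normalization r was 0.968 in the Per3-/- eye (exact permutation adjusted p = 0.00952). For the pair in the WT hypothalamus it was then 0.753 (exact permutation adjusted p = 0.1), which did not pass. Both pairs had a lower r in the same tissue of the other genotype. For A_51_P370423 and A_52_P424784 it was 0.247 in the WT eye (exact permutation p = 0.551). For A_52_P573994 and A_52_P424784 it was 0.411 in the Per3-/- hypothalamus, with rho of 0.0952 (exact permutation p = 0.318 and 0.84). The remaining Clstn2 relations, all in the hypothalamus, had r from 0.568 to 0.729, and none passed the adjustment. The 2 last Clstn1 probes had an r of -0.02 in the WT hypothalamus (exact permutation p = 0.962) and of 0.28 in the Per3-/- hypothalamus (exact permutation p = 0.489), with rho of 0.0238 and 0.143 (exact permutation p = 0.977 and 0.752). In the WT eye r was 0.804 (exact permutation p = 0.0345, adjusted p = 0.171) and rho 0.786 (exact permutation p = 0.048, adjusted p = 0.192), and in the Per3-/- eye r was 0.294 (exact permutation p = 0.529) and rho 0.357 (exact permutation p = 0.444). The log2 difference between Clstn2 probes passed the test between genotypes in none of 6 comparisons (lowest exact permutation p = 0.152, adjusted p = 0.273).

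Over the 30 arrays, with the mean of each tissue taken out and among 25213 probes well above background on all of them, the genes most like A_52_P448205 were Prdm16 (r = 0.958), Kcnab2 (r = 0.911) and Megf6 (r = 0.815), all on chromosome 4 as Clstn1 is. The values still hold the genotype difference, by which Clstn1 was chosen. Those most like Clstn2 A_52_P424784 were Ikbkg (r = 0.836), Tril (r = 0.812) and Xpot (r = 0.795). For Clstn3 they were Cntnap2 (r = 0.778), Usp29 (r = 0.769) and Tmem132e (r = 0.75).

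Genes linked to kinesin-1, X11 adaptors, cleavage or synapse organisation were listed, not all of them known partners of the calsyntenins. None was called for genotype by limma or the methods' t-test, as for nearly all probes (0.0413% called in the hypothalamus and 0.0194% in the eye). At an unadjusted p under 0.05 limma passed 1 of them, Apba2, in the hypothalamus and 0 in the eye. Of all 41174 probes 1161 and 743 passed that cut. Of 8 kinesin-1 genes none was called in either tissue, with a median of -0.04 in the hypothalamus and -0.08 in the eye, beside -0.01 and 0.0047 over all probes. The largest were Klc3, a kinesin light chain, at 0.17 in the hypothalamus and Kif5a, a motor chain, at -0.13 in the eye. Of 7 X11 and amyloid precursor family genes none was called, with medians of -0.07 and -0.0003. Apba2, which encodes an X11 adaptor, had the largest hypothalamic value at -0.13 and Aplp2 the largest eye value at -0.10. Of 10 sheddase and gamma-secretase genes none was called, with medians of 0.01 and 0.01, and Aph1a, a gamma-secretase subunit, was the largest at 0.04 in the hypothalamus and -0.40 in the eye. Of 17 neurexins, neuroligins and other synapse organisers none was called, with medians of -0.05 and -0.06. Cbln4 was at -0.16 in the hypothalamus and the neurexin Nrxn2 at -0.16 in the eye.

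Many of these listed genes were also called between the tissues, against 33.3% of all probes lower and 41.6% higher in the eye. Of the 17 synapse organisers 16 were lower in the eye and none higher, with a median of -1.99 log2. Of the kinesin-1 genes 6 were lower and 2 higher, of the X11 and amyloid precursor family 6 and 1, and of the sheddases and gamma-secretase subunits 6 and 4. With so many probes called, nothing particular to these lists is read from the counts. All 7 neuron markers were lower in the eye, with a median of -2.45. The part of the share of neurons in the tissue differences was not tested.

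Markers of other cell types were not called for genotype in either tissue by limma or the methods' t-test, and 0 of them passed at an unadjusted p under 0.05. Over all 41174 probes limma called 0.0413% in the hypothalamus and 0.0194% in the eye, and 1161 and 743 passed the unadjusted cut. The lack of calls among the markers is thus near the background. The summed signal of 5 oligodendrocyte markers spread from 9.39 to 72.2 times P75 over the WT eyes and from 6.08 to 46.0 times over the Per3-/- eyes, with a median genotype difference of -0.55. Of 5 astrocyte and Mueller glia markers the largest was Gfap at -0.50 in the eye. The part of these cells in the eye values was not tested.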

How the data were processed

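Arrays were 4x44K 1-colour Agilent oligonucleotide arrays. The deposited Feature Extraction files give processed intensity in scanner units, which the authors' software had background-corrected. The authors' value table, on the log2 scale, was used as an alternative and holds signal relative to the 75th percentile, centred for each probe within a tissue. Uneven and outlier spots were left out, replicate spots averaged, and log2 intensity taken minus the 75th percentile of each array. Eye probes were matched by probe name. Probe positions are on mm9, per the hypothalamus file headers.

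Genotype, tissue and their interaction were fitted over all 41174 probes with limma 3.58.1 in R 4.3.3, with Benjamini-Hochberg adjustment at 0.05, and the fits were tested on simulated data. Groups came from the labels. 1 WT and 1 Per3-/- eye were not analysed here. Pairs of probes were compared by exact permutation tests, two-sided. Nothing in the labels names separate litters, so the reported tests took the arrays as independent and rest on the spread between these mice. The calsyntenins, the gene lists and the rule for named genes (every calsyntenin probe; called list members, otherwise the largest difference; the 3 genes most alike) were chosen with earlier results of these data known. Alternatives were quantile normalization, normexp correction (offset 50), a background filter, all spots kept, the authors' table, slide and replicate blocks, the methods' t-test and leaving out each mouse.

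By the design text both tissues came from the same mice, but the labels give only replicate numbers, and same-numbered eye and hypothalamus arrays deviated together little (correlations from -0.06 to 0.12 in WT and from -0.12 to 0.16 in Per3-/- mice), so the tissues were not taken as paired. Between genotypes, deviations of same-numbered mice correlated from 0.11 to 0.63 in the 6 eye pairs and from -0.03 to 0.32 in the 8 hypothalamic pairs. The reported genotype fits took neither tissue as paired. In both, the replicate number was a block only as an alternative.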

Additional observations from a re-analysis of the deposited data

How the results depend on the processing

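The difference of A_52_P448205, on which Clstn1 was chosen, was -0.49 to -0.45 in the hypothalamus and -0.64 to -0.59 in the eye over left-out replicates, which is no independent support. With the replicate block 5 probes were called in the hypothalamus and 1 in the eye, against 17 and 8, and the number of called calsyntenin probes in the eye, which the choice of Clstn1 had set at 1, was 0. Blocking tissues by number left 6 calsyntenin probes called between them. With normexp correction 10 and 4 were called. For the difference of the genotype effect between tissues, 2 probes were called, and 1 with quantile normalization, 0 with normexp correction (limma; 797 at an unadjusted p under 0.05 in the reported fit), 0 with the replicate block and 1 to 3 without single mice. Relations between probes that passed numbered 1 after quantile normalization against 2. The causes were not tested.

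Most signs that turned belonged to differences near 0. In the hypothalamus, A_51_P370423 was 0.0003 with quantile normalization and 0.0012 with normexp correction (-0.0388 to 0.0286 over left-out mice), and A_52_P424784 0.0065 and 0.0046 (-0.0253 to 0.0432). In the eye, A_51_P287986 was 0.0032 with quantile normalization and 0.0017 with the replicate block (-0.0343 to 0.0347), A_51_P370423 0.12 with normexp correction and 0.0264 with the block (-0.0458 to 0.0455), and A_51_P114094 0.0096 with quantile normalization and 0.0186 with the block (-0.0399 to 0.0332). Between tissues, A_52_P763332 was -0.74 with quantile normalization, where it gained a call (limma adjusted p = 0.0184), and -0.0091 with the block (-0.11 to 0.34), and it was left out by the background filter. For the difference of the genotype effect, A_51_P370423 was 0.12 (-0.0678 to 0.0337 over left-out mice) and A_51_P114094 -0.0024 with normexp correction.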
